A study of Mus musculus with 4 samples.

Results

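Gene expression in 1 culture of immortalized mouse embryonic fibroblasts given Myc was set against that in 1 culture given an empty vector. The values were FPKM, fragments per unit of transcript length and of total fragments, so each is a level relative to the total of its own library. Genes were taken up where the mean over the 4 libraries of the series reached 1 FPKM, which left 11950 of 23366 genes, called measured from here on. The 2 other cultures, given MycN or a protein named Minimal Myc, also had 1 library each, and their levels stand beside those of the pair as a description. Every culture, vector included, consisted of immortalized fibroblasts in serum-containing DMEM that received an adenovirus with Cre, a recombinase that removes DNA flanked by its target sites. Harvest followed a recovery given as 48, without a unit. By the stated design the cells with vector alone lack Myc, and the question was how expression changes when a Myc protein is present. The promoter that drives the added Myc, the strain and whether a culture descends from 1 clone are not given in the sources used here. With 1 library a side there was no replicate check, no test and no measure of spread, and the added protein and the culture it was put in cannot be told apart.

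Myc is a transcription factor that binds DNA together with its partner Max, most tightly at the E-box sequence CACGTG. It is known to act on genes that cells need for growth, above all those that make ribosomes, nucleotides and proteins, and fibroblasts switch it on when serum starts them dividing. Proteins of the Mxd family and Mnt also pair with Max and repress genes at such sites, and other genes, for growth arrest and adhesion, are known to be lower where Myc is high.

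The targeted gene came first. Myc stood at 22.2 FPKM in vector and 141 in Myc, with 4.36 in MycN and 32.6 in Minimal Myc, so it was highest in the library that should carry it, with an FPKM ratio of Myc to vector of 6.36. A value for the whole gene does not tell transcripts of the added gene from those of the cell's own copy, and it does not show which parts of the gene the 22.2 FPKM in vector come from. The vector library was thus not free of Myc transcript. The related Mycn was low on both sides, at 0.390 FPKM in vector and 0.275 in Myc, and Mycl1 was at 0.432 and 0.676. All 9 measured partners and competitors of the network were higher in Myc than in vector, 3 of them by at least 2-fold (Mxi1, Mxd3 and Mxd4, which repress as partners of Max). Over all 11950 genes 82.3% were higher, and 11.5% by at least 2-fold. After the median difference of all genes was subtracted, 0 of the 9 were at least 2-fold higher. Mlx, the partner of the related glucose-sensing factors, stood at 16.2 FPKM in vector and 23.6 in Myc, and Mlxip, one of those factors, at 6.42 and 10.4. Mga, a Max partner that silences germ cell genes, stood at 5.40 and 8.52 FPKM. The differences of Mlx, Mlxip and Mga were near the size seen over all genes, which is given next.

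Most genes had a higher FPKM in the Myc library. On the scale used throughout, the difference of log2(FPKM + 1), Myc minus vector, the median over the 11950 genes was 0.47, a 1.38-fold shift. On that scale 9832 genes (82.3%) were above 0, the quartiles were 0.15 and 0.76, and the 5th and 95th percentiles were -0.54 and 1.25. A gene is called at least 2-fold higher or lower where this difference reaches 1 in size, and "after centring" means that the median of 0.47 was first subtracted. By that rule 1371 genes (11.5%) were higher and 274 (2.29%) lower, and after centring 271 (2.27%) were higher and 608 (5.09%) lower. These 4 shares are the background for each count of a gene group below. For counts by rank, 3515 of all 11950 genes had their highest level of the 4 libraries in Myc, 8054 their lowest in vector and 1002 their lowest in Myc. In the plot of the libraries against each other most genes form a band above the line of equal FPKM.

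**Figure D1:**
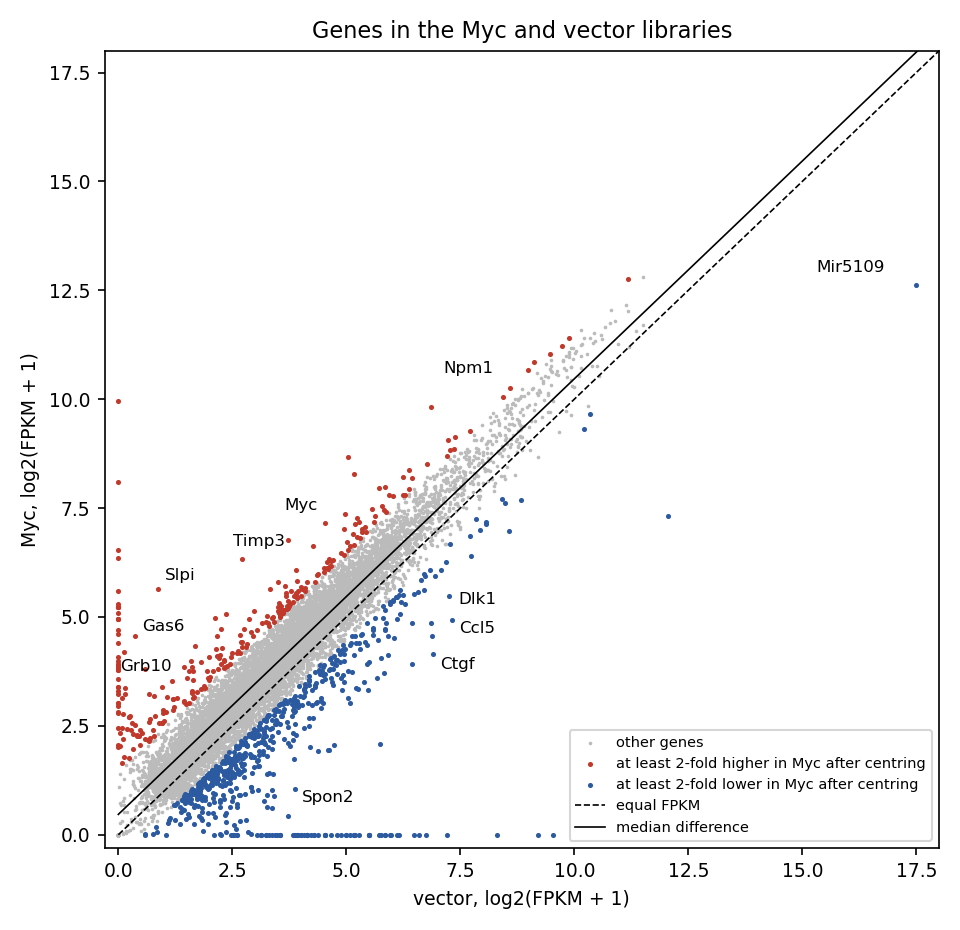
Each point is 1 of 11950 genes, with log2(FPKM + 1) in vector on the x axis and in Myc on the y axis. The dashed line marks equal FPKM and the solid line the median difference of 0.47; red and blue points are the 271 and 608 genes at least 2-fold higher or lower after centring. Points on either axis are genes listed at 0 in 1 library.

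The direction of the called genes turned with the scaling. In the authors' second table, where FPKM of a library are multiplied by 1 factor (1 for vector, 2.04 for Myc), 9265 genes reached 2-fold higher, 135 reached 2-fold lower and the median difference was 1.42. With each library scaled to the same FPKM sum over all genes but small RNA genes, the median was -0.11 and the split turned round, to 181 higher and 659 lower. Gene groups are therefore described relative to the median of all genes, and the level itself is given beside it in FPKM.

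The size of the difference also grew with the level of the gene. For genes with a mean of vector and Myc of 1 to 3 FPKM the median difference was 0.23 (1798 genes), for 10 to 30 FPKM it was 0.53 (3635 genes), for 100 to 300 FPKM it was 0.72 (479 genes) and from 300 FPKM up it was 0.88 (250 genes). Adding 1 before the logarithm shrinks the difference of low genes. For some groups the median against genes of like level (centred within twentieths of mean expression) is therefore given too. At least 2-fold higher were 117 of 479 genes at 100 to 300 FPKM and 94 of 250 from 300 FPKM up. The 11.5% of all genes is thus a low background for lists of abundant genes.

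**Figure D2:**
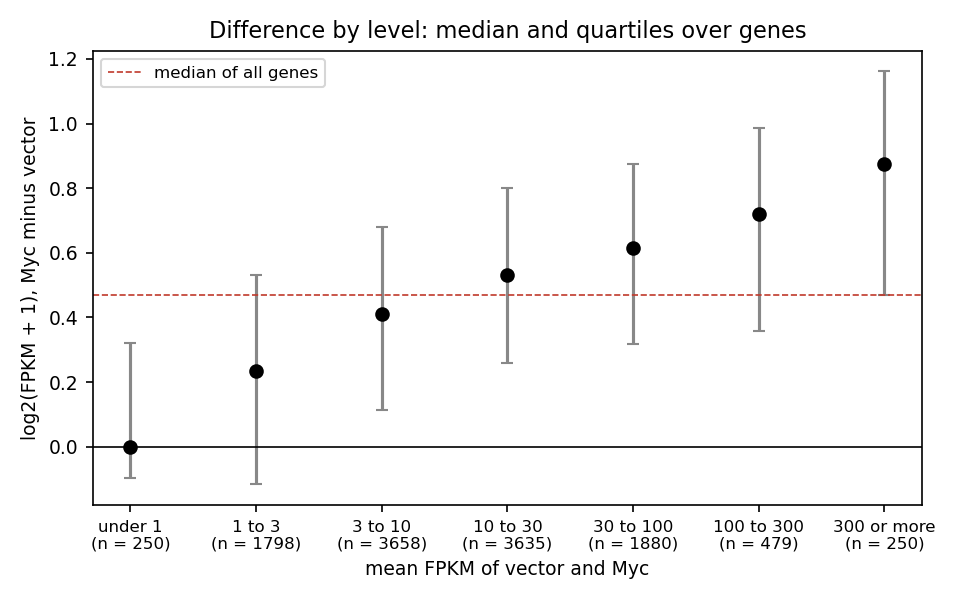
The difference of log2(FPKM + 1), Myc minus vector, by the mean FPKM of both libraries. Dots are medians over genes, bars span the quartiles, the number of genes is under each, and the dashed line is the median of all genes, 0.47. Medians go from 0 under 1 FPKM to 0.88 from 300 FPKM up.

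RNAs outside the usual messenger class lay on the other side. Replication-dependent histone messages end in a stem-loop and carry no poly(A) tail. The libraries were made after poly(A) selection, so the amount of such RNA and what passed the selection cannot be told apart. As a group the histone messages had lower FPKM in Myc: 17 of 56 measured were at least 2-fold lower and 0 higher. Their median difference was -0.79, and all 56 lay below the median of all genes. Hist1h1b, a linker histone gene, stood at 8.53 FPKM in vector and 0.883 in Myc, with 2.0 in MycN and 0.647 in Minimal Myc. Hist2h2bb, of a core histone, stood at 17.5, 3.05, 4.62 and 1.36 FPKM in the same order, and vector was again the highest library. Hist1h2bc, the most abundant member, hardly differed, at 11.3 FPKM in vector and 10.8 in Myc. In the scaled table the histone median was -0.03, so whether the group lay below its own level in vector depended on the scaling. In every setting run its median lay below that of all genes. Of 10 measured untailed or nuclear RNAs, 5 were at least 2-fold lower, and the 1 higher (Rn45s, the precursor of ribosomal RNA) is listed at 0 in vector. Rpph1, the RNA of ribonuclease P, stood at 55.9 FPKM in vector and 12.2 in Myc, and Rprl3, a close copy with which it can share reads, at 50.1 and 11.1. Neat1, a nuclear RNA that does carry a tail in its short form, was higher in Myc, at 101 FPKM against 59.5.

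Small RNA genes (symbols of microRNAs, small nucleolar and small nuclear RNAs) made up 310 of the 11950 genes and differed in no common direction. Of 206 microRNA genes 41 reached 2-fold higher and 74 lower, while 62 are listed at 0 in vector and 96 in Myc, and of 62 box C/D small nucleolar RNAs (Snord) 22 were higher and 10 lower. Mir5109 alone stood at 185861 FPKM in vector and 6330.5 in Myc, and the small RNA genes together summed to 230044 FPKM in vector and 73283 in Myc out of 557083 and 595437. FPKM of transcripts shorter than a sequenced fragment are unstable, so these values describe the tables and not the amounts of small RNA. Their part in the shift of all other genes, like that of untailed RNA, was not tested beyond the equal-sum scaling above. Leaving out the 310 genes without rescaling gave a median difference of 0.47, with 1300 genes higher and 182 lower. The FPKM of the other genes stay as they were, so this cannot show the part of small RNA genes in the shift.

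NanoString, which counts RNA molecules by hybridization without sequencing, was deposited for 30 genes and gave the ratios of Myc to vector a second reading. By NanoString all 30 were higher in Myc, from 1.33-fold for B2m, the light chain of MHC class I, to 3.08-fold for Ptma, a nuclear protein of dividing cells. By FPKM 28 were higher, and the ratios of both methods lay within 1.25-fold of each other for 20 genes. Il2rg and Hpx, counted here, did not reach the filter of 1 FPKM. The median FPKM ratio over the 30 was 1.92, above the 1.38-fold shift of all genes on the log2(FPKM + 1) scale. The 30 genes thus do not stand for all genes. By NanoString the median ratio over the 30 was 2.04. The FPKM ratios here are unscaled, before the factor of 2.04 for Myc in the authors' second table. Sdha, a subunit of respiratory complex II, had a ratio of 2.74 by NanoString and 2.75 by FPKM. Polr1b, the second-largest subunit of RNA polymerase I, had 2.35 and 2.81, and Ncl, the nucleolar protein nucleolin, 2.57 and 3.69. Cdca7, a gene known as a Myc target, had 2.67 and 3.41, so these 3 were set further apart by FPKM than by NanoString. Cltc, the clathrin heavy chain, was set less far apart by FPKM, with 2.12 by NanoString and 1.31 by FPKM. B2m was the plainest case: its NanoString signal was 46911 (vector) and 62438 (Myc), against 1269 and 911 FPKM. The sources used here do not give the normalization of NanoString.

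**Figure D3:**
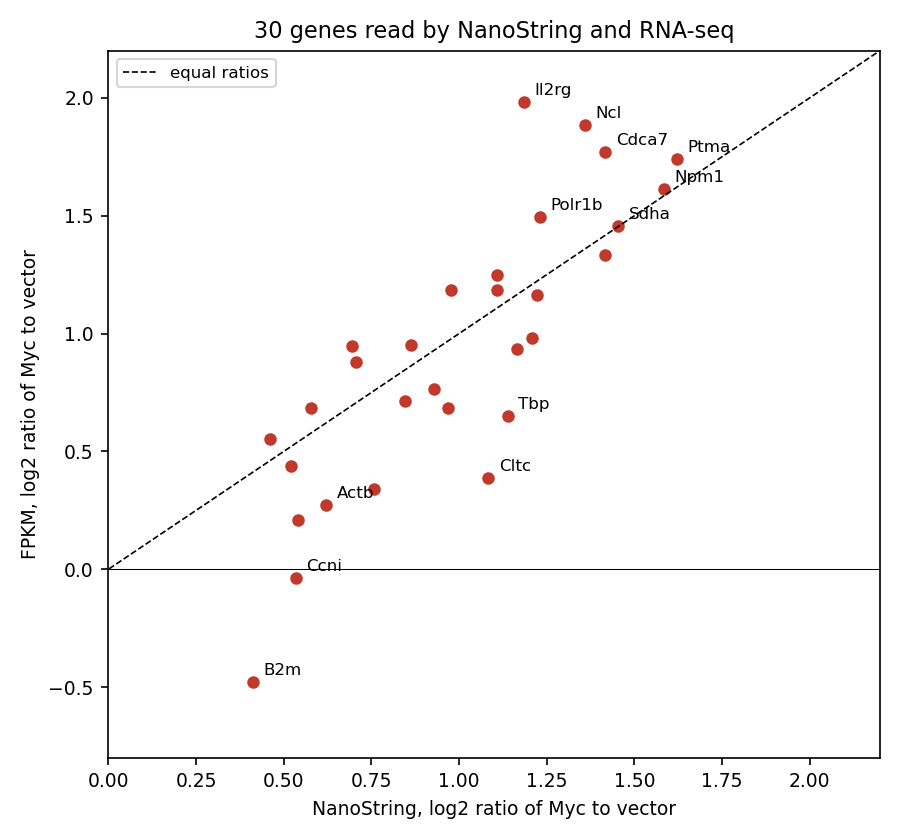
Log2 ratio of Myc to vector for 30 genes, by NanoString on the x axis and by unscaled FPKM on the y axis, 1 library each. The dashed line marks equal ratios. All points lie right of 0 by NanoString, and B2m and Ccni lie below 0 by FPKM.

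Ribosome assembly was the gene group furthest above the median of all genes in the Myc library, among the lists with at least 5 measured genes. Of 74 measured genes on this list, which includes nucleolar regulators, 56 were at least 2-fold higher than in vector and 0 lower, against 11.5% and 2.29% of all genes. After centring 19 of 74 were higher, against 2.27%, the median difference was 1.21, and 53 had their highest level of the 4 libraries in Myc, as had 3515 of all 11950 genes. The proteins that bind box C/D and H/ACA guide RNAs, which direct chemical marks on ribosomal RNA, had a median of 1.43 over 9 genes, and the other nucleolar factors 1.19 over 65. Centred on genes of like level the list still stood at 0.62.

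Single genes of the list show how far the Myc library stood apart. Nsun2, an RNA methyltransferase counted with the regulators, stood at 18.2 FPKM in vector and 98.4 in Myc, with 42.3 in MycN and 42.0 in Minimal Myc. Pa2g4, a nucleolar growth regulator, stood at 51.9, 248, 87.7 and 108 FPKM. Nop16, a factor of the large subunit, stood at 13.8, 66.3, 34.3 and 31.0 FPKM. In these genes Myc exceeded each other library by over 1.5-fold, and vector was the lowest. Heatr1, which couples transcription and processing of ribosomal RNA, had the same form, at 7.83 FPKM in vector and 27.9 in Myc, with 10.9 in MycN and 11 in Minimal Myc. Npm1, the abundant nucleolar chaperone, did not: at 345, 1054, 588 and 1187 FPKM it was higher in Minimal Myc than in Myc. At the low end of the list Gnl2, a GTPase of the large subunit, stood at 30.5 FPKM in vector and 38.9 in Myc, and Imp3, of the small-subunit processome, at 20.7 and 26.7, below the median shift of all genes.

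Because Myc binds the E-box, the promoters of this group were searched for CACGTG, which reads the same on both strands, in the RefSeq window from 250 bases before to 50 after each start (build GRCm38.p6). A promoter was found for 65 of the 74 genes (87.8%), and 13 of these (20%) held the motif, 12 of them among the 51 at least 2-fold higher. Of all 32851 promoter windows in the table, several of which can belong to 1 gene, 2349 (7.15%) held it. Counted per gene as for the list, 1110 of the 9287 measured genes with a promoter held it (11.95%), and 161 of 1087 among those at least 2-fold higher (14.8%). Of 53 lysosomal genes with a promoter, a list that was not high in Myc, 18 held it (34.0%). A comparison with all measured genes is void, since only 77.7% of the 11950 had a promoter, and these shares are descriptions. The windows of Nsun2, Pa2g4, Nop16, Ncl, Lyar, Heatr1, Nop58 and Wdr12 held 0 matches, and those of 9 genes, Wdr43 among them, held it only within the 50 bases after the start. In 4 genes it lay before the start, and the 250 bases before the start of each are printed, 5′ to 3′ on the gene's strand, to show where the motif sits (capitals). They are Imp4 (chr1:34439579-34439828, plus strand, motif 121 bases before the start), Nop2 (chr6:125131633-125131882, plus strand, 60 bases), Wdr46 (chr17:33940473-33940722, plus strand, 12 bases) and Utp18 (chr11:93885767-93886016, minus strand, 20 bases).
Imp4: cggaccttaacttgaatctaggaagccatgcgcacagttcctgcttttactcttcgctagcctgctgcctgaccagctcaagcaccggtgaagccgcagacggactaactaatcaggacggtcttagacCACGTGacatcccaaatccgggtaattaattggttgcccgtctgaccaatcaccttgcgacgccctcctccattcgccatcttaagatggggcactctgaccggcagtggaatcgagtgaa
Nop2: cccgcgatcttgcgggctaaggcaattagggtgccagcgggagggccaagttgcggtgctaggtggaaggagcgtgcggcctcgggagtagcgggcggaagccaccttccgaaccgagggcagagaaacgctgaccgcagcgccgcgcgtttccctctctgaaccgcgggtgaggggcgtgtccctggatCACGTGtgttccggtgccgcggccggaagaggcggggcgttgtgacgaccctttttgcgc
Wdr46: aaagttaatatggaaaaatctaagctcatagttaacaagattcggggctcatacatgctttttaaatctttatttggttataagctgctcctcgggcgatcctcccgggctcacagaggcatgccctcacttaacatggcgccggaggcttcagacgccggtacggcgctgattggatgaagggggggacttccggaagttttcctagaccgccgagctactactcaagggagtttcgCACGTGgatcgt
Utp18: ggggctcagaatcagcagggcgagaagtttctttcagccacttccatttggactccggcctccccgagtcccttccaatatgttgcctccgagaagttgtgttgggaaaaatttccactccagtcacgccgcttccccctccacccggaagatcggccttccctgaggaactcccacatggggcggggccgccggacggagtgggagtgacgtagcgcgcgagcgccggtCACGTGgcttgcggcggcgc
Imp4, of the small-subunit processome, stood at 10.3 FPKM in vector and 34.3 in Myc, with 27.7 in MycN and 25 in Minimal Myc. Nop2, a methyltransferase of ribosomal RNA, stood at 34.7 and 85.1 FPKM in vector and Myc, Wdr46 at 17.8 and 43.9, and Utp18 at 12.2 and 26.4. Their log2 differences of 1.65, 1.27, 1.26 and 1.05 lay within the range of list members whose windows held 0 matches, which reached 2.37 in Nsun2. A match of 6 letters is a description of the window, not a site of binding.

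Cytosolic ribosomal protein genes were higher as a block. Of 77 measured, 52 stood at least 2-fold higher and 0 lower, all 77 were above the median of all genes, and the median difference was 1.16. After centring 5 of 77 were higher, against 2.27% of all genes. Against genes of like level its median was 0.39, since these are among the most abundant messages. The medians of the large and small subunit were 1.16 and 1.14. Rps27a stood at 506 FPKM in vector and 1623 in Myc, and Rps23 at 385 and 1224. Rplp1, of the ribosomal stalk, stood at 2320 and 4163 FPKM. These genes have near-identical processed copies in the genome, so a single value is uncertain. In sum the 80 genes of the list had 50385 FPKM in vector and 108034 in Myc, against 83819 in MycN and 92676 in Minimal Myc. The mitochondrial ribosome stood lower, with 25 of 76 genes at least 2-fold higher, 0 lower and a median of 0.90. Mrps27, of its small subunit, stood at 9.54 FPKM in vector and 31.0 in Myc.

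The polymerases that make ribosomal and transfer RNA were higher too. For RNA polymerase I, which makes the large ribosomal RNAs, 5 of 14 measured genes were at least 2-fold higher, 0 lower, and 11 had their highest level in Myc (3515 of all 11950 genes). Its largest subunit Polr1a stood at 17.9 FPKM in vector and 51.0 in Myc, with 30.4 in MycN and 26.6 in Minimal Myc. For RNA polymerase III 7 of 21 reached 2-fold higher and 0 lower, with Polr3g, a subunit typical of fast-dividing cells, at 2.10 FPKM in vector and 7.75 in Myc. In RNA polymerase II, which makes messenger RNA, 2 of 13 subunits reached 2-fold, a share near the 11.5% of all genes given the small number. The largest of them was Polr2e, a subunit common to all 3 polymerases, at 46.3 FPKM in vector and 176 in Myc. By their medians the lists lay close together, at 0.87 for polymerase I, 0.82 for II and 0.80 for III. Relative to all genes, their lowest medians over the settings run were 0.30, 0.08 and 0.26. After centring 0 of 14, 1 of 13 and 2 of 21 genes were higher, against 2.27% of all genes.

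Translation factors followed with 20 of 63 at least 2-fold higher, 0 lower and a median of 0.83. Relative to all genes, the lowest median of this list over the settings run was 0.23. Eif1ax, which helps find the start codon, stood at 85.8 FPKM in vector and 290.2 in Myc, with 151 in MycN and 215 in Minimal Myc. Of 39 tRNA synthetases 9 were higher (Lars2, listed at 0 in vector, is counted) and 0 lower, among them Kars, which charges lysine, at 75.4 and 173 FPKM. Aars, which charges alanine, was the 1 cytosolic member with a lower FPKM in Myc, at 82.3 against 97.4. Lars2, the mitochondrial leucine enzyme, is listed at 0 in vector and at 273 FPKM in Myc, and no fold is given, because a 0 in these tables can be a failed estimate.

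Genes of nucleotide synthesis were high in Myc. Of 16 purine genes 10 were at least 2-fold higher, of 9 pyrimidine genes 5, and of 14 genes of deoxynucleotide supply 3, with 0 lower in each. Prps2, which makes the activated ribose for purines and pyrimidines, stood at 5.41 FPKM in vector and 20.3 in Myc, with 10.8 in MycN and 18.8 in Minimal Myc. Atic, of the last purine steps, stood at 31.2 and 104 FPKM in vector and Myc. Cad, the first enzyme of pyrimidine synthesis, stood at 16.6 and 55.2. Rrm2, a subunit of ribonucleotide reductase, lay below the median shift, at 71.0 FPKM in vector and 95.3 in Myc. Over the 39 genes the median was 0.93, and 25 had their highest level in Myc, against 3515 of all 11950 genes.

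Polyamines bind RNA and serve growth, and their synthesis split. Of 12 measured synthesis genes 6 were at least 2-fold higher. Srm, spermidine synthase, stood at 56.9 FPKM in vector and 254 in Myc, with 190.2 in MycN and 143 in Minimal Myc, and Sms, spermine synthase, at 11.7, 46.1, 18.5 and 35.6 FPKM. Odc1, the rate-limiting enzyme and a textbook Myc target, stood at 93.7 FPKM in vector and 212 in Myc, while it was at 112 in MycN and 104 in Minimal Myc. Ass1, an enzyme of arginine supply on this list, was lower in Myc than in vector, at 45.1 against 89.1 FPKM.

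Serine and one-carbon genes differed gene by gene. None of the 3 enzymes that make serine reached 2-fold in either direction, and Psat1, the most abundant, stood at 119 FPKM in vector and 187 in Myc. Of 17 folate and methyl cycle genes 7 stood at least 2-fold higher and 0 lower, among them Shmt1, which moves carbon from serine to folate, at 10.5 and 33 FPKM. Ahcy, which clears the product of methylation reactions, stood at 53 and 144. Aldh1l2, a mitochondrial folate enzyme, was lower in Myc, at 8.03 against 13.6 FPKM. Over all 20 measured genes the median was 0.16 above that of all genes, and it was -0.01 against genes of like level. Targets of Atf4, the factor of amino acid stress that also drives serine enzymes, lay low: their median difference was -0.03 over 19 genes, 0.49 below that of all genes, with 1 at least 2-fold higher and 0 lower. Atf4 itself stood at 203 FPKM in vector and 214 in Myc. Ddit4, an mTOR inhibitor induced by stress, was the exception at 8.97 FPKM in vector and 48.8 in Myc, with 42.9 in MycN and 17.2 in Minimal Myc.

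Protein arginine methyltransferases, which mark splicing and ribosomal proteins, had 5 of 9 members past 2-fold on the high side, and Myc was the highest library for 8 of 9 (for 3515 of all 11950 genes), with a median 0.69 above that of all genes and 0.39 above genes of like level. Prmt5, which methylates the Sm proteins of the spliceosome, stood at 19.8 FPKM in vector and 50.8 in Myc. Among splicing factors 17 of 42 snRNP proteins were at least 2-fold higher, but 2 of 31 SR and hnRNP proteins. All 31 of the latter still lay above the median of all genes, with a median difference of 0.79 against 0.91 for the snRNP proteins. Lsm7, of the ring that binds U6 RNA, stood at 82.1 and 219 FPKM. The single lower member was Snrpn, an imprinted Sm protein gene described with the imprinted genes. Carriers of nuclear transport had 10 of 28 genes higher and nucleoporins 4 of 23. Rcc1, which loads Ran with GTP in the nucleus, stood at 23 FPKM in vector and 68.3 in Myc.

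Chaperone genes were 2-fold higher more often than the background in the cytosol and in mitochondria, and about as often as it in the endoplasmic reticulum. Of 35 cytosolic chaperones 12 were at least 2-fold higher and 0 lower, and after centring 0 were. Cct4, of the chaperonin that folds actin and tubulin, stood at 81.8 FPKM in vector and 226 in Myc. The stress-induced Hspa1b had a lower FPKM in Myc, at 5.31 against 7.79. In mitochondria 10 of 41 import and folding genes were higher and 0 lower, and the Hspd1 and Hspe1 pair, which forms the matrix chaperonin from neighbouring genes, stood at 149.9 and 163 FPKM in vector and at 532 and 466 in Myc. In the endoplasmic reticulum 3 of 25 genes reached 2-fold, about the background, led by Pdia6, a disulfide isomerase, at 88.4 and 246 FPKM. Of 41 proteasome genes 9 were higher and 0 lower, with Psmb10, an immunoproteasome subunit, at 14.3 and 37.2 FPKM and Psmb8, another, at 7.77 and 6.53. Relative to all genes, the lowest medians over the settings run were 0.14 for cytosolic chaperones and 0.19 for mitochondrial import and folding. They were 0.03 for the endoplasmic reticulum and 0.15 for the proteasome.

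Energy genes differed less. Glycolysis and pyruvate genes had a median of 0.72 over 30, with 7 at least 2-fold higher, 3 after centring and 0 lower, and 0.05 against genes of like level. Pdk4, a kinase that holds pyruvate out of mitochondria, was near absent except in Myc, at 0.216 FPKM in vector and 4.27 in Myc, with 0.172 in MycN and 0.496 in Minimal Myc. Its substrate Pdha1 stood at 36.6 FPKM in vector and 114 in Myc, and Pfkl, a phosphofructokinase, at 24.0 and 71.4. Ldha, which makes lactate, stood at 455 and 1079 FPKM. The respiratory chain lay near the median of all genes, at 0.12 above it over 79 genes and at -0.12 against genes of like level, so its direction turned with the centring. Of these genes 11 were higher and 1 lower. The lower one was Cox6a2, the heart and muscle form of a complex IV subunit, at 3.35 FPKM in vector and 0.321 in Myc. Tfrc, the transferrin receptor that brings in iron, stood at 21.7 and 68.3 FPKM, and 4 of 16 iron genes were at least 2-fold higher. Of 36 Nrf2 antioxidant genes 11 were, with Mgst1, a glutathione transferase, at 13.8 FPKM in vector and 44.4 in Myc.

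**Figure D4:**
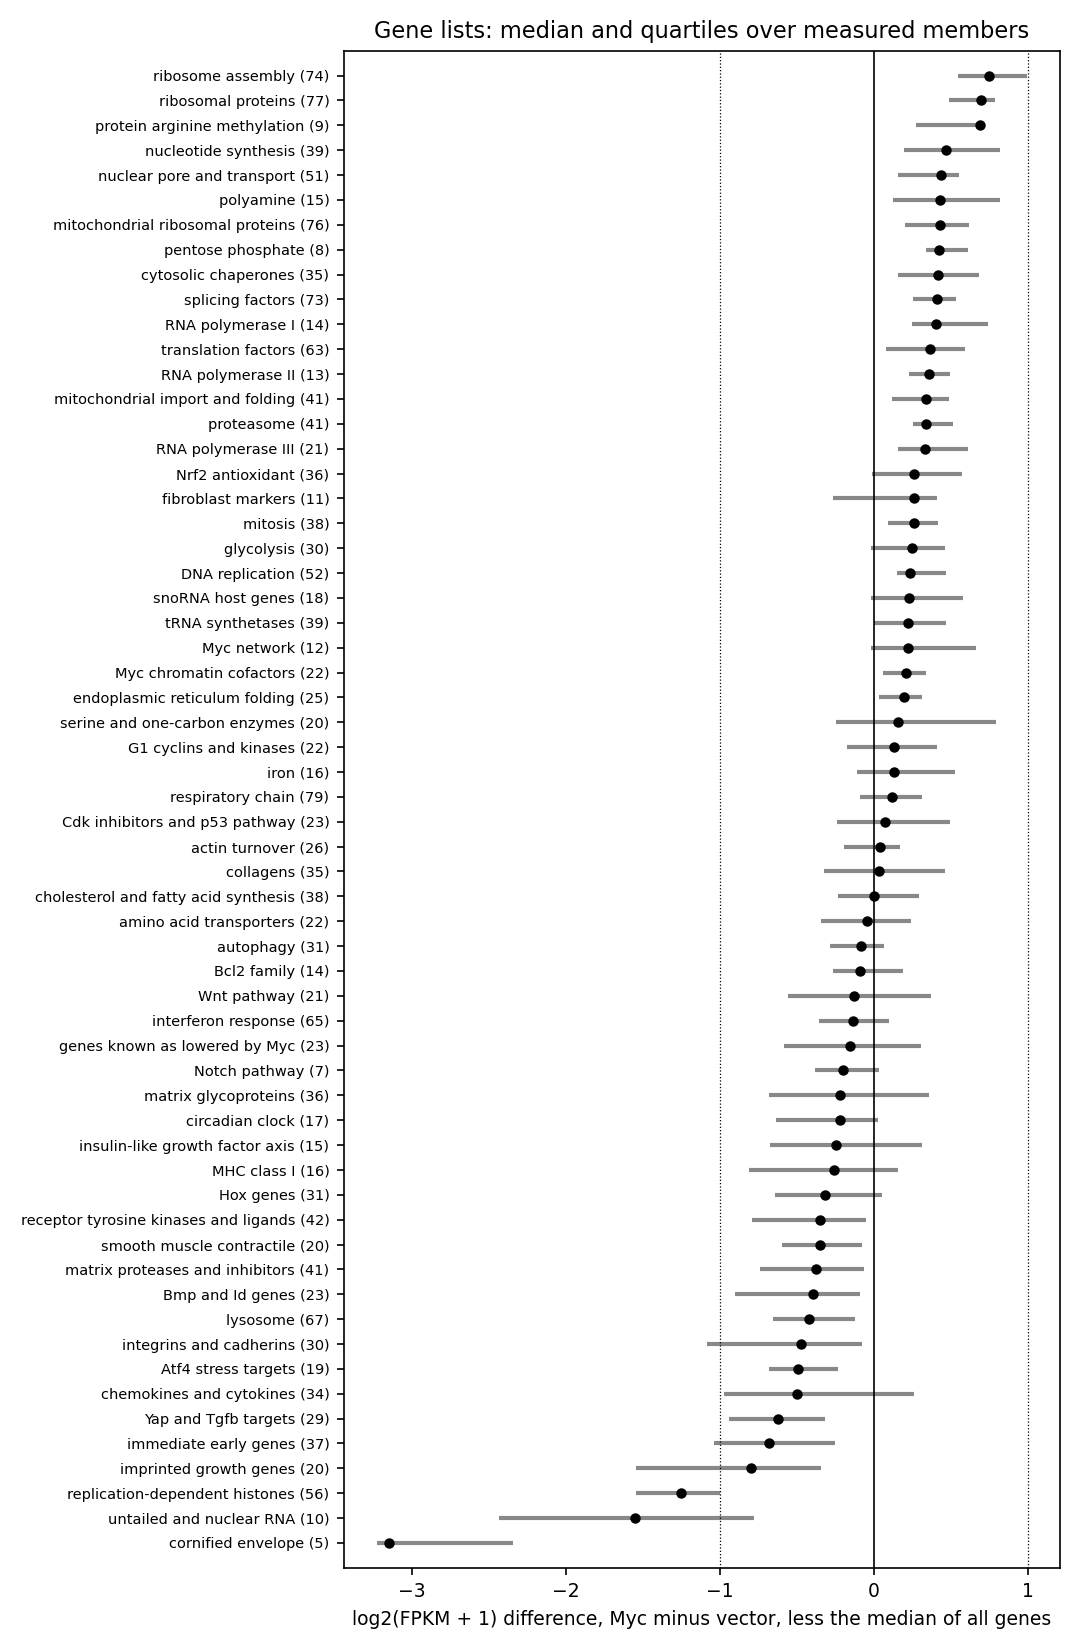
Median (dot) and quartiles (bar) over the measured genes of each list, as the difference of log2(FPKM + 1), Myc minus vector, less the median of all genes. The number of measured genes is in brackets, and dotted lines mark 2-fold. Ribosome assembly stands highest at 0.74 and the cornified envelope lowest at -3.15. The respiratory chain, serine and one-carbon enzymes, fibroblast markers, collagens, actin turnover and Wnt lists change sign when centred on genes of like level.

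Cell cycle genes stood little above the rest. Of 52 replication genes 10 reached 2-fold higher and 0 lower, with a median of 0.70, and of 38 mitosis genes 8 were higher, with 0.72. After centring 0 of either list were past 2-fold. Mcm6, of the replicative helicase, stood at 35 FPKM in vector and 84.7 in Myc, and Cdc20, which triggers anaphase, at 40.1 and 106. Among 22 genes of the G1 phase 0 reached 2-fold; E2f4 and Ccne2 came nearest, both at 0.99 on the log2 scale. Cdk4, the kinase of G1, stood at 229 and 439 FPKM, and Rb1, the brake on S phase, at 2.17 and 1.89.

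Growth arrest genes went both ways. Cdkn1a, the p53-induced Cdk inhibitor p21, stood at 25 FPKM in vector and 9.92 in Myc, with 16.5 in MycN and 8.18 in Minimal Myc. Gadd45a, another arrest gene, stood at 24.8, 10.5, 16.3 and 16.2 FPKM, and vector was the highest library for each. Cdkn2a, which encodes Arf and p16 and is often active in cultured fibroblasts, was lowest in vector, at 227 FPKM against 536 in Myc, and 543 and 737 in MycN and Minimal Myc. Fas, a death receptor and p53 target, stood at 3.24 FPKM in vector and 12.6 in Myc. Of 23 genes that are textbook cases of repression by Myc, 3 were at least 2-fold lower (Cdkn1a, Gadd45a and Gadd45g) and 2 higher. Txnip, on that list as a brake on glucose uptake, stood at 14.4 FPKM in vector and 47.6 in Myc. In the Bcl2 family 2 of 14 were higher and 0 lower: Bnip3l, of mitochondrial clearance, stood at 19.1 and 46.0 FPKM, and Bid, which carries death signals to mitochondria, at 18.2 and 39.0.

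Lysosomal genes kept near their vector FPKM while most other genes were higher in Myc. Over 67 measured genes the median difference was 0.05, which is 0.42 below that of all genes and 0.53 below genes of like level, and 10 of 67 lay above the median of all genes. Only 2 were at least 2-fold lower and 2 higher, and the list summed to 4327 FPKM in vector and 4540 in Myc. Atp6v1g1, a subunit of the acidifying proton pump, stood at 451 FPKM in vector and 204 in Myc, with 236 in MycN and 267 in Minimal Myc. Lamp1, the main membrane protein, stood at 591 and 408 FPKM in vector and Myc, and Ctsd, an abundant protease, at 228 and 151. Cd63, the most abundant member, was higher in Myc, at 793 FPKM against 465. Against this, Ctsf, a cysteine protease, stood at 1.10 and 4.27 FPKM and Lipa, the acid lipase, at 14.1 and 35. Autophagy genes lay nearer the rest, with a median of 0.38 over 31, which is 0.09 below that of all genes and 0.23 above it with no filter on low genes. Optn, a cargo receptor, stood at 7.45 FPKM in vector and 2.81 in Myc.

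Genes that serum and mechanical tension switch on lay, by their list medians, below the median of all genes. Of 37 immediate early genes 4 were at least 2-fold lower and 0 higher, and after centring 10 were lower, against 5.09% of all genes, with a median difference of -0.21. Klf4, a factor of quiescent fibroblasts, stood at 18.3 FPKM in vector and 5.43 in Myc, with 8.63 in MycN and 8.42 in Minimal Myc, and Dusp4, a phosphatase that curbs MAP kinases, at 44.3, 14.7, 9.52 and 11.6. Hbegf, an Egf receptor ligand, stood at 34.9 and 16.6 FPKM in vector and Myc. Ier3, the most abundant member, went against them at 131 and 239 FPKM. Of 29 targets of Yap and Tgfb, the tension and matrix pathways, 1 was at least 2-fold lower and 0 higher, near the background, and after centring 7 were lower and 0 higher. Ctgf, their most used marker, stood at 119 FPKM in vector and 16.8 in Myc, with 31.0 in MycN and 68.5 in Minimal Myc. Cyr61, its relative, stood at 267, 140.1, 222 and 290.3 FPKM, so the Myc library was the lowest of the 4 for each. Thbs1, thrombospondin and another abundant member, went the other way, at 127 FPKM in vector and 223 in Myc. In the scaled table the medians of both lists were 0.79, above 0 but below the 1.42 of all genes.

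Of 20 contractile genes 2 stood at least 2-fold higher and 2 lower, 4 lay above the median of all genes, and their median was 0.35 below it. Of 26 actin turnover genes 1 was higher and 1 lower, and their median was 0.04 above that of all genes but -0.16 against genes of like level. Tpm2, a tropomyosin, stood at 103 FPKM in vector and 48.2 in Myc, and Actg2, a smooth muscle actin, at 16.9 and 7.18, yet the abundant Tpm1 was at 327 and 432. Pfn2, a profilin, stood at 43.1 and 19.4 FPKM, while Cfl1, cofilin, which severs filaments, was at 868 and 1679.

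Collagens showed no common direction relative to other genes. Of 35 measured, 6 were at least 2-fold higher and 0 lower, and the median was 0.03 above that of all genes but -0.07 against genes of like level. Pcolce2, an enhancer of collagen processing, stood at 2.11 FPKM in vector and 12.5 in Myc, with 13.5 in MycN and 5.25 in Minimal Myc. Among matrix glycoproteins the ends of the list were far apart. Dcn, the proteoglycan decorin, stood at 81.6 FPKM in vector and 329.7 in Myc, with 135 in MycN and 246 in Minimal Myc. Lama4, a laminin chain of basement membranes, stood at 0.180, 5.48, 0.514 and 7.84 FPKM. Spon2, a secreted adhesion protein, was at 13.8 FPKM in vector and 1.06 in Myc, and Tinagl1, of basement membranes, at 56.9 and 25. Matrix proteases and their inhibitors were similarly mixed. Timp3, an inhibitor held in the matrix, stood at 5.56 FPKM in vector and 79.1 in Myc, with 6.26 in MycN and 23.2 in Minimal Myc, a ratio of Myc to vector of 14.2. Plau, the urokinase protease, stood at 13.2, 4.01, 6.31 and 9.28 FPKM.

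Adhesion molecules held members past 2-fold in both directions: of 30 integrins, cadherins and relatives 5 were higher and 6 lower, against 11.5% and 2.29% of all genes. Mcam, a cell adhesion molecule of vessels and mesenchyme, stood at 25.7 FPKM in vector and 3.17 in Myc, with 14.3 in MycN and 5.85 in Minimal Myc. Alcam, an adhesion molecule that binds itself, stood at 6.47 and 1.15 FPKM in vector and Myc, and Cdh13, a cadherin without a cell-inner part, at 5.81 and 0.911. Pcdh10 was at 9.42 and 1.03 FPKM, whereas Pcdh20, another protocadherin, was at 0.0530 in vector and 4.47 in Myc. Itgb1, the abundant common integrin chain, stood at 170.0 and 147 FPKM.

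Growth factor receptors and ligands held some of the most different genes of the comparison. Gas6, the ligand of the Axl and Mertk receptors, stood at 0.298 FPKM in vector and 22.7 in Myc, with 0.0134 in MycN and 0.574 in Minimal Myc. Its receptor Axl was at 104 and 94.4 FPKM in vector and Myc. Erbb3, a receptor for neuregulins, stood at 0.0272, 4.09, 0.0700 and 0.218 FPKM, so it too was present in the Myc library and near absent elsewhere. Egfr, the Egf receptor, stood at 2.98 FPKM in vector and 16.0 in Myc, with 2.23 in MycN and 8 in Minimal Myc. On the low side were Ephb2, an ephrin receptor, at 4.59 FPKM in vector and 0.707 in Myc, and the ligand Pdgfd at 4.96 and 1.12. Over 42 genes 4 stood at least 2-fold higher and 4 lower, and the median was 0.35 below that of all genes. In the insulin-like growth factor axis Igfbp3, a binding protein, stood at 1.44 FPKM in vector and 7.88 in Myc, with 25.3 in MycN and 39.8 in Minimal Myc.

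Imprinted growth genes, active from 1 parental copy, had 6 of 20 at least 2-fold lower and 1 higher, against 2.29% and 11.5% of all genes. Dlk1, which keeps cells undifferentiated, stood at 151 FPKM in vector and 44.0 in Myc, with 375 in MycN and 185 in Minimal Myc. Sgce, a membrane protein, stood at 13.5, 2.36, 12.8 and 15.8 FPKM, so Myc alone was low. Snrpn was low in Myc and MycN, at 0.170 and 0.0127 FPKM, against 4.80 in vector and 5.33 in Minimal Myc. Plagl1, a factor that regulates other imprinted genes, stood at 2.16 FPKM in vector and 0.186 in Myc. The single higher one was Grb10, an adaptor that damps insulin signalling, at 0.0977, 17.5, 0.105 and 38.7 FPKM, low in vector and MycN and high in the other 2. In the scaled table the median of the 20 genes was 0.14, above 0.

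Secreted inhibitors of Wnt and Bmp signalling differed gene by gene. Sfrp2, which binds Wnt ligands, stood at 0.594 FPKM in vector and 8.40 in Myc, with 0.582 in MycN and 0.457 in Minimal Myc, and its relative Sfrp1 at 0.198, 5.58, 0.138 and 33.9. Notum, which inactivates Wnt ligands, was at 4.02 and 0.773 FPKM in vector and Myc. Grem1, a Bmp antagonist, stood at 108 FPKM in vector and 365 in Myc. Smad6, an inhibitor inside the Bmp pathway, stood at 17.9 and 6.84 FPKM and Id1, a main Bmp target, at 262 and 336. Among 31 measured Hox genes, which hold a fibroblast's position along the body, 2 were at least 2-fold higher and 0 lower. Their most abundant member Hoxc6 stood at 40.0 FPKM in vector and 30.1 in Myc. The clock repressor Nr1d1 was at 26.8 and 11.9 FPKM, the 1 of 17 clock genes past 2-fold.

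Immune genes were mostly at or below the general shift. Of 65 interferon response genes 1 reached 2-fold higher and 2 lower, and their median was 0.14 below that of all genes, or 0.17 above it with no filter on low genes. Oasl1, an antiviral regulator, stood at 23.1 FPKM in vector and 2.88 in Myc, with 1.17 in MycN and 27.6 in Minimal Myc. Of 16 MHC class I genes 2 were higher and 0 lower, and H2-D1, a heavy chain, stood at 143 and 101 FPKM in vector and Myc. Among 16 chemokines 0 were at least 2-fold higher and 1 lower, and 10 had their lowest level of the 4 libraries in Myc, as had 1002 of all 11950 genes. Ccl5, a chemokine for T cells, stood at 159 FPKM in vector and 29.6 in Myc, with 74.7 in MycN and 125 in Minimal Myc, while Ccl2, which draws monocytes, was at 328, 576, 398 and 1193. Of 18 cytokine and acute phase genes 3 stood at least 2-fold higher and 2 lower. Il11, a cytokine of stromal cells, stood at 9.32 FPKM in vector and 2.90 in Myc. On the high side Slpi, a protease inhibitor, stood at 0.815 FPKM in vector and 49.0 in Myc, with 33.4 in MycN and 24.3 in Minimal Myc, and Saa3, serum amyloid, at 3.34, 30.7, 34.4 and 227.

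Some genes were near absent on 1 side. Leaving aside small RNA genes and genes listed at 0, 10 genes had at least 5 FPKM in Myc and under 0.5 in vector. Cyp1b1, an oxidase of steroids and pollutants, stood at 0.0512 FPKM in vector and 7.88 in Myc, with 3.27 in MycN and 9.34 in Minimal Myc. Gpx7, a peroxidase of the endoplasmic reticulum, was at 0.103, 8.41, 0.243 and 11.3 FPKM, and Serpina3g, a protease inhibitor, at 0.102, 9.38, 0.664 and 10.4. The pattern of Gpx7 and Serpina3g, high in Myc and Minimal Myc and low in vector and MycN, was also that of Grb10, Lama4 and Sfrp1. Islr, a secreted marker of mesenchyme, was higher in all 3 at 0.493 FPKM in vector and 12.9 in Myc, with 7.41 in MycN and 2.70 in Minimal Myc. Gas6 and Sorcs1 were high in Myc foremost, and Cnnm1 in Myc and MycN. The grouping by pattern was made after these values were seen. In the other direction Lce1g, Pisd-ps1, Ildr2, Gdf10 and 1700019B21Rik had at least 5 FPKM in vector and under 0.5 in Myc. Gdf10, a Tgfb family ligand, stood at 5.32 FPKM in vector and 0.254 in Myc, with 0.0417 in MycN and 26.2 in Minimal Myc. Egln3, a prolyl hydroxylase that senses oxygen, was at 3.66 FPKM in vector and 0.00592 in Myc, the greatest ratio among the 25 lowest genes.

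**Figure D5:**
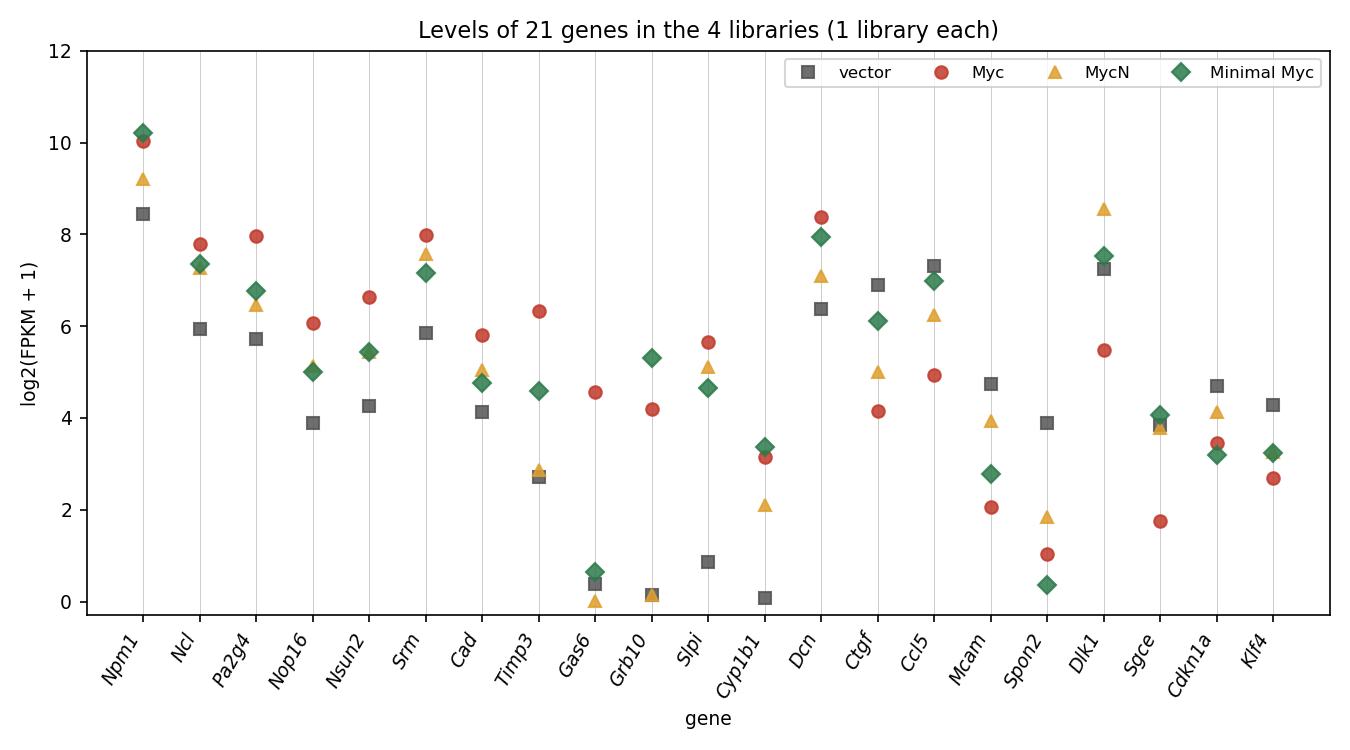
Level of 21 genes in the 4 libraries as log2(FPKM + 1), 1 symbol a library and no error bars because each group has 1 library. Growth genes from Npm1 to Cad have vector lowest, Gas6 stands out in Myc, Grb10 is high in Myc and Minimal Myc, and Ctgf, Ccl5, Mcam, Dlk1 and Sgce are lowest in Myc.

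Genes of the cornified envelope, the protein coat of skin cells, were low in Myc: 4 of 5 measured were at least 2-fold lower. Only 5 of 41 listed genes passed the filter, mostly through their level in vector, which favours a lower call, and the count supports nothing beyond these genes. Relative to all genes the list median was -3.15, and -0.42 with no filter on low genes. Sprr1a, a cross-linked envelope protein that fibroblasts can also make under stress, stood at 23.6 FPKM in vector and 2.84 in Myc, with 0.182 in MycN and 4.19 in Minimal Myc, and Lce1g at 12.2, 0.345, 0 and 5.21. Markers of epithelium did not show the same gap: 1 of 11 was measured, Krt19 at 13.2 FPKM in vector and 10.6 in Myc, the list summed to 13.7 and 11.3, and Epcam was listed at 0 in both. In a bulk culture fewer cells of a type and less RNA per cell cannot be told apart.

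The cell label was checked on its markers. Fibroblast markers summed to 1679 FPKM in vector and 2525 in Myc, with Vim at 707 and 830 and Col1a1 at 147 and 243. Within them Thy1, a surface marker of fibroblast subsets, was lower in Myc at 115 against 208 FPKM, while Twist2, a mesenchymal factor, stood at 289 against 113. Immune markers summed to 12.4 and 15.3 FPKM, endothelial to 1.33 and 0.606, adipocyte to 7.91 and 9.94, skeletal muscle to 14.7 and 19.4 and neural to 21.4 and 13.3. The adipocyte, skeletal muscle and neural sums came almost wholly from 1 gene each, the only measured member of its list. These were Fabp4 at 7.61 FPKM in vector and 9.75 in Myc, Acta1 at 13.8 and 18.2 and Tubb3 at 20.6 and 12.6. Tyrobp and Myod1 were listed at 0 in both. The part of other cells in the gene lists was not tested.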

How the data were processed

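RNA from 4 libraries, 1 per culture, was sequenced after poly(A) selection on a stranded protocol, per the labels' protocols. The authors deposited FPKM, unscaled and in a second table multiplied by 1 factor per library, with NanoString rows in both. The submitters' processing notes name TopHat2 2.0.11, Cufflinks 2.2.0 and mm9. FPKM give no read counts, so depth is unknown here and intervals are left out. A 0 can be a failed estimate.

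NanoString rows were left out of the sequencing values, rows of 1 gene that differed were summed (57 measured genes), and genes were kept from a 4-library mean of 1 FPKM up. The measure was the difference of log2(FPKM + 1), as such and less its median; 1 FPKM was the pseudocount, so folds of low genes are understated. A call needed 2-fold. The fold calling was checked on simulated FPKM with planted folds far above 2-fold, and recovery was scored only in genes well above the filter. That checks the calculation, not calls near 2-fold or of low genes. With 1 library a group no test was possible. Alternatives were another pseudocount, other filters, the scaled table, centring in twentieths of mean expression and, added after seeing the data, an equal FPKM sum. Python 3.11.15, pandas 2.3.3, numpy 2.4.6 and matplotlib 3.10.9 were used.

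The genes and the 67 lists were chosen with earlier results of these data known. Genes to name were drawn from these sets: the Myc network, the 25 highest and 25 lowest (without genes listed at 0, genes with differing rows, small RNA genes and gene models with provisional names), the 4 members of each list furthest from the median difference with its most abundant one, the 10 most abundant genes, genes with at least 5 FPKM on 1 side and under 0.5 on the other, NanoString genes, and genes with an E-box among the 10 highest of ribosome assembly. Not every gene of these sets is named in the text. Epcam, Myod1 and Tyrobp, from the marker lists, were also named outside this rule. Named outside this rule, after their values were seen, were Col1a1, Ctsd, Ctsf, Egfr, Gnl2, Grem1, Heatr1, Imp3, Lamp1, Lipa, Lyar, Neat1, Nop2, Nop58, Odc1, Plagl1, Rrm2, Utp18, Wdr12 and Wdr46. Promoters came from RefSeq on GRCm38.p6, another build than the authors', and were matched by symbol.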

Additional observations from a re-analysis of the deposited data

How the results depend on the processing

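The main counts were 1371 genes at least 2-fold higher and 274 lower, 271 and 608 after centring, with a median difference of 0.47. With a pseudocount of 0.1 FPKM 408 genes were higher after centring. With no filter on level 870 were higher after centring and the median was 0.15. With a mean of at least 5 FPKM 146 were lower, and after centring 176 were higher and 364 lower. Without small RNA genes 182 were lower. In the scaled FPKM the number higher was 9265, 135 were lower and the median was 1.42. With an equal FPKM sum over all but small RNA genes, added after seeing the data, 181 were higher, 659 lower and the median was -0.11. With no filter the median of MHC class I changed sign relative to all genes to 0.059, that of matrix glycoproteins to 0.011 and that of the circadian clock to 0.081, and against genes of like level that of fibroblast markers became -0.039; the cause was not tested. Of 61 list medians relative to all genes, 60 moved by less than 0.2 under equal sums, and 58 did so under the authors' scaling. With no filter on level only 9 of 61 did, while 49 moved further and 3 were counted as reversed. The list medians thus depended on the filter. Other lists also changed sign in some setting. Genes known as lowered by Myc had a main median of -0.15 and reached 0.14, and the Bcl2 family had -0.09 and reached 0.08. None of the 354 named genes' called differences changed sign under the settings run. No paired analysis was possible because each group has 1 library, so no library could be left out either. Depth is unknown, and with 1 library a group no difference can be set against the spread between cultures.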

Other observations

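Genes that carry small nucleolar RNAs in their introns lay, as spliced transcripts, somewhat above the general shift by their list median. Of 18 measured host genes 5 were at least 2-fold higher in Myc and 0 lower, against 11.5% and 2.29% of all genes. Their median difference was 0.69, which is 0.23 above that of all genes, and 13 of 18 lay above it. The lowest such median over the settings run was 0.07. Eef1b2, a host gene that encodes an elongation factor subunit, stood at 118 FPKM in vector and 303 in Myc, while Snhg9, a short noncoding host, was at 17.4 and 13.0. Cofactors that bind Myc on chromatin were all lowest in vector among the 4 libraries (22 of 22), as were 8054 of all 11950 genes, and 4 of them reached 2-fold. Ruvbl1, an ATPase of chromatin remodelling complexes, stood at 29.8 FPKM in vector and 84.7 in Myc, with 59.2 in MycN and 69.0 in Minimal Myc.

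Amino acid transporters showed no common shift, with 3 of 22 at least 2-fold higher and 0 lower. Slc43a1, a carrier of large neutral amino acids, stood at 0.440 FPKM in vector and 4.08 in Myc, with 7.70 in MycN and 0.517 in Minimal Myc. The pentose phosphate pathway, which supplies ribose and NADPH, had 3 of 8 higher and 0 lower, with Tkt, transketolase, at 35.5 FPKM in vector and 91.0 in Myc. Among lipid synthesis genes 6 of 38 were higher and 0 lower, led by Fasn, fatty acid synthase, at 26.1 and 65.9 FPKM.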
